A study of Arabidopsis thaliana with 2 samples.

Results

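The 4 genes of the AGAMOUS clade of Arabidopsis thaliana, AG (AT4G18960), SHP1 (AT3G58780), SHP2 (AT2G42830) and STK (AT4G09960), were examined as DNA targets of a pair of altered SEP3-AG protein complexes. They were taken by locus identifier, and all 4 were found among the 27444 protein-coding genes that the TAIR10.1 RefSeq gene table places on chromosomes 1 to 5. A peak was assigned to every gene that held its midpoint or had an end at most 3000 bp from it. The measurement was sequential DNA affinity purification sequencing, in which fragments of extracted genomic DNA are captured by a purified protein complex and sequenced. The DNA of both samples came from untreated 2-week-old seedlings, as bulk tissue. The sample titles call the complexes SEP3Δtet3M-AG and SEP3Δtet-AGΔtet, and both carry changes that the series' design text describes as affecting tetramerization. The genotype label reads SEP3Δtet3M-AG for both samples, so the complex was taken from the title. The labels do not say what 3M stands for. The unaltered complex and the earlier mutant SEP3ΔtAG were not analysed here, so there is no control list against which to set these values.

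AG, SHP1, SHP2 and STK encode closely related MADS-domain transcription factors. AG specifies stamens and carpels and ends the growth of the floral meristem. SHP1 and SHP2 act redundantly in the valve margin, where the fruit opens, and share the specification of ovules with STK, which also acts in the stalk from which the seed detaches. These proteins work in complexes with SEPALLATA proteins such as SEP3, and the dimers can pair into a tetramer that holds separate DNA elements. AG has a double role in these data, as a partner in both complexes and as one of the loci examined. In plants, AG is known to act on its own expression, and SHP2, first named AGL5, was an early candidate target of AG.

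SEP3Δtet3M-AG gave 1681 peaks and SEP3Δtet-AGΔtet gave 2277, each 400 bp wide. Each complex had 1 list without scores or read numbers, so a peak is present or absent, the depth is unknown, and no replicate error or test between the complexes could be had. No source used here names the build behind the peak positions, and their fit to the gene table was tested with joint shifts of 2000 to 20000 bp. Unmoved, 30.2% of SEP3Δtet3M-AG midpoints were intergenic with a protein-coding gene at most 1000 bp away, against 20.4 to 23.3% when moved. For SEP3Δtet-AGΔtet the share was 35.0%, against 20.7 to 22.2% when moved. The gene table holds no strand, exons or introns. Positions are therefore given from the low-coordinate or the high-coordinate end of a gene, and no peak is called upstream, downstream, exonic or intronic.

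AG, SHP2 and STK each had a peak with both complexes, and SHP1 had none with either. The same 3 of 4 genes (75.0%) thus had a peak within 3000 bp in each list, though the STK peak was nearer to AT4G09950. By the same rule 12.0% of all protein-coding genes had a peak with SEP3Δtet3M-AG, 15.8% with SEP3Δtet-AGΔtet and 8.65% with both. The clade's genes are long, from 3900 bp for SHP2 to 5684 bp for AG, which widens the window in which a peak counts. Among the 2451 protein-coding genes of that length range, 15.5% had a peak with SEP3Δtet3M-AG, 18.9% with SEP3Δtet-AGΔtet and 10.7% with both. With 4 genes these shares are a description of the lists, and no test was made.

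By the 3000 bp rule 4 peaks were counted in each list, 2 at AG and 1 each at SHP2 and STK. Every one of the 4 overlapped a peak of the other list, so no position at these genes was found with 1 complex alone. Over the whole lists, 67.6% of SEP3Δtet3M-AG peaks and 49.7% of SEP3Δtet-AGΔtet peaks overlapped the other list.

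**Figure D1:**
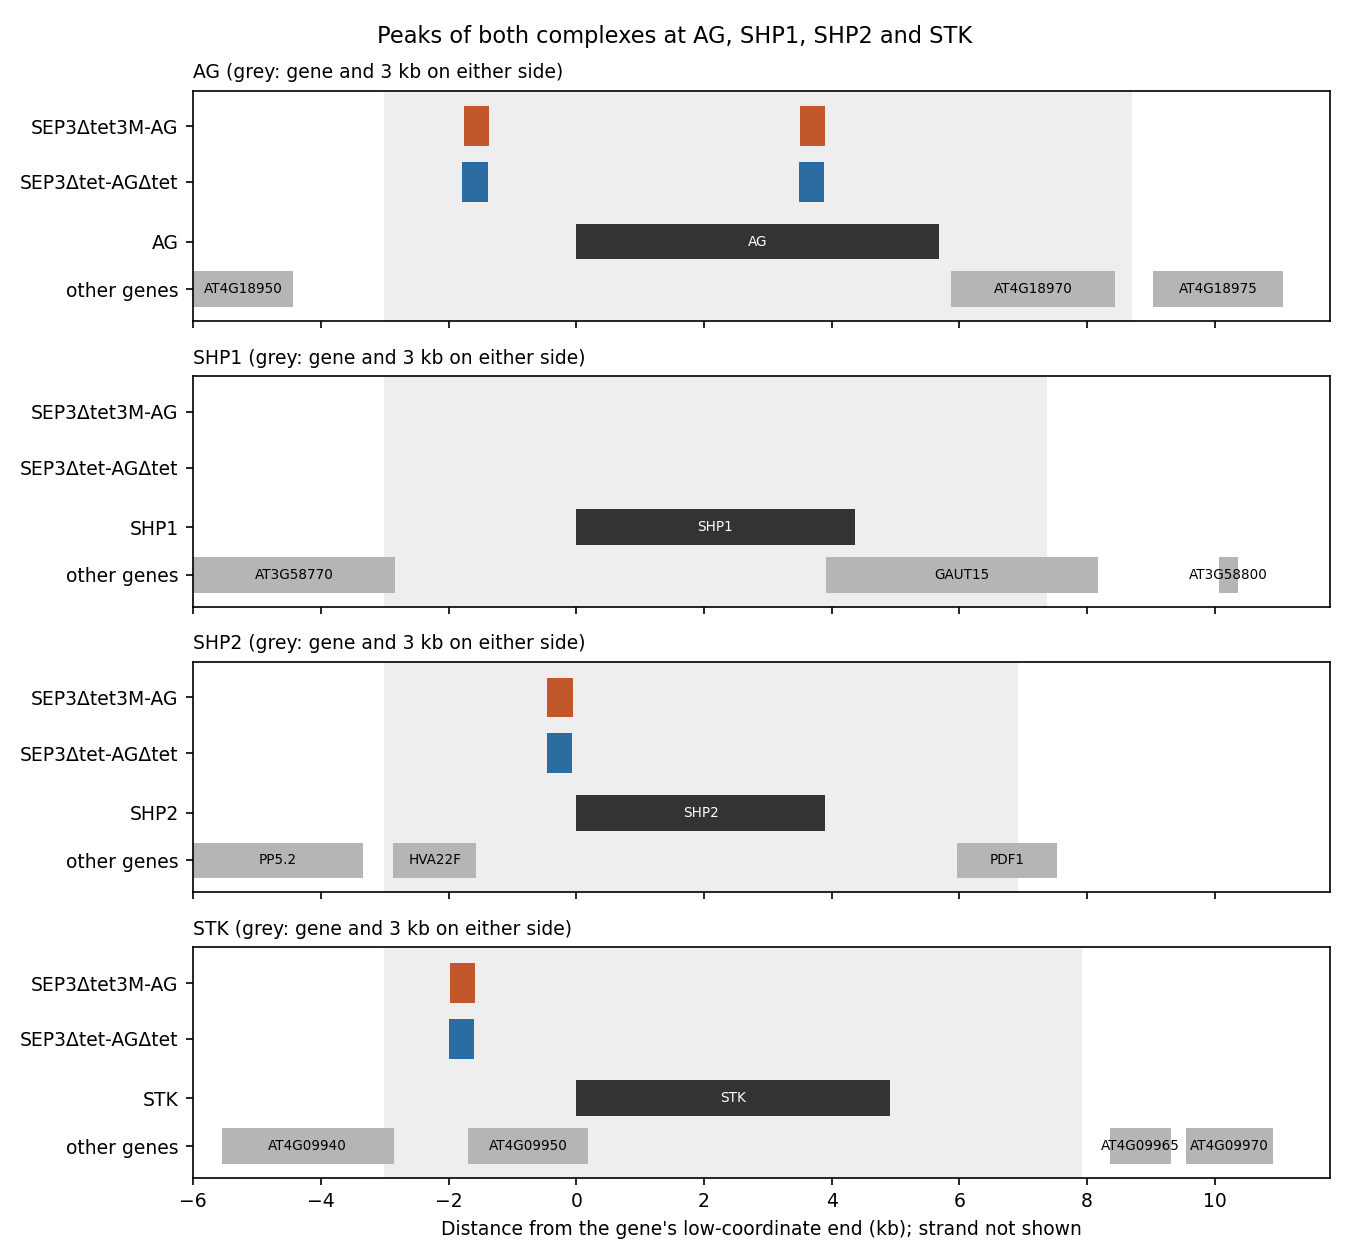
Map of the 4 loci, with distance from the gene's low-coordinate end (kb) on the x axis; coloured bars are the 400 bp peaks of each complex, the dark bar is the named gene, pale bars are other protein-coding genes, and grey shading is the gene with its flanks. AG has 2 peaks with each complex, SHP2 and STK have 1, and no peak of either complex lies in the SHP1 panel.

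AG carried a peak inside the gene and a further peak beside it with each complex. Inside AG, the SEP3Δtet3M-AG peak lay at chromosome 4, 10386353 to 10386752, and the SEP3Δtet-AGΔtet peak at 10386343 to 10386742. Their midpoints were 65.0% and 64.8% of the way along the gene from its low-coordinate end. The peaks shared 390 of their 400 bp, which puts them at the same place in the interior of AG. From the nearer end of the gene the midpoints were 1987 bp and 1997 bp away. Of the 877 SEP3Δtet3M-AG peaks inside protein-coding genes, 47 (5.36%) lay at least that far from both ends, and of the 1063 SEP3Δtet-AGΔtet peaks, 56 (5.27%) did. The median depth of a peak inside a gene was 589 bp and 604 bp, respectively, so the AG peak was among the more deeply placed ones in both lists. Genes of every length entered this comparison, and only a long gene such as AG, of 5684 bp, can hold a peak that far from both ends. For comparison of rates, 3.17% of all protein-coding genes, of any length, had a peak inside with SEP3Δtet3M-AG and 3.8% with SEP3Δtet-AGΔtet.

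The AG peaks outside the gene lay on its low-coordinate side. They ran from 10381096 to 10381495 with SEP3Δtet3M-AG and from 10381071 to 10381470 with SEP3Δtet-AGΔtet, with midpoints 1561 bp and 1586 bp from the gene. AG was the nearest protein-coding gene to all of these peaks. The neighbouring gene AT4G18950 lay 2879 bp and 2854 bp from the same midpoints. On the other side, AT4G18970 lay 2170 bp and 2180 bp from the midpoints inside AG, so each neighbour also counts as having a peak by the 3000 bp rule. The 2 AG peaks were 5257 bp apart, midpoint to midpoint, with SEP3Δtet3M-AG and 5272 bp apart with SEP3Δtet-AGΔtet. Of the 4 members, AG alone had more than 1 peak. Of all protein-coding genes, 0.772% had 2 or more peaks with SEP3Δtet3M-AG, 1.44% with SEP3Δtet-AGΔtet and 0.394% with both, which is 108 genes. These shares were not matched for gene length.

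SHP2 had its peak close to the gene's low-coordinate end. With SEP3Δtet3M-AG it lay at chromosome 2, 17819662 to 17820061, and with SEP3Δtet-AGΔtet at 17819653 to 17820052. The midpoints were 253 bp and 262 bp outside SHP2, and the whole of both peaks lay outside the gene. SHP2 was the nearest protein-coding gene, and the next one on that side, HVA22F, was 1316 bp and 1307 bp away. Of all protein-coding genes, 4.39% had a SEP3Δtet3M-AG peak closer than SHP2 did, and 5.52% had a closer SEP3Δtet-AGΔtet peak.

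The peak counted for STK was nearer to another gene. It lay at chromosome 4, 6234396 to 6234795, with SEP3Δtet3M-AG and at 6234377 to 6234776 with SEP3Δtet-AGΔtet. From STK, on its low-coordinate side, the midpoints were 1780 bp and 1799 bp away. The midpoints were only 76 bp and 95 bp outside AT4G09950, a protein-coding gene that overlaps the end of STK, and 125 bp and 106 bp of the 400 bp peaks lay inside that gene. AT4G09940 was 1079 bp and 1060 bp away, again closer than STK. The peak therefore counts for STK by distance alone, and within 1000 bp of STK there was no peak in either list.

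SHP1, the close relative of SHP2, had no peak inside it or in its flanks, nor in the part it shares with the overlapping gene GAUT15. Its nearest SEP3Δtet3M-AG peak was 12818 bp beyond its high-coordinate end, inside AT3G58830 (chromosome 3, 21755136 to 21755535). Its nearest SEP3Δtet-AGΔtet peak was 19878 bp beyond its low-coordinate end, inside AT3G58730 (21718083 to 21718482). These peaks lay on opposite sides of SHP1, and neither overlapped a peak of the other list. The median protein-coding gene was 21370 bp from a SEP3Δtet3M-AG peak and 15688 bp from a SEP3Δtet-AGΔtet peak. SHP1 thus sat at an ordinary distance, with 35.0% of genes closer to a peak of the former and 57.6% closer to a peak of the latter. No peak within 3000 bp in either list was the usual state, at 80.8% of protein-coding genes. Because the lists hold called peaks only, binding at SHP1 below the caller's threshold cannot be seen.

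**Figure D2:**
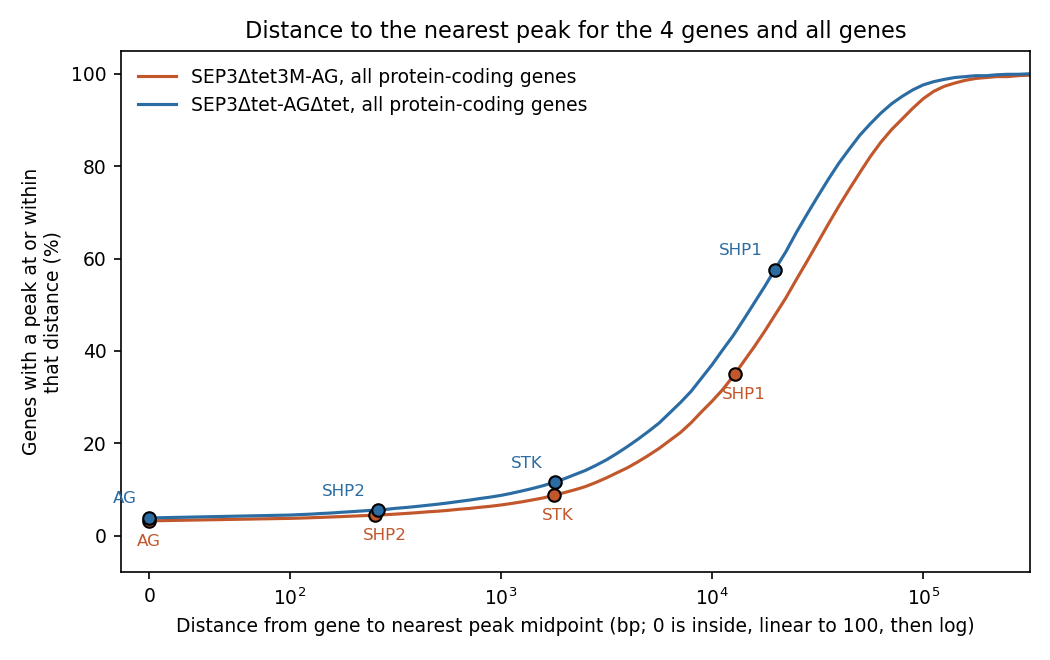
Share of all 27444 protein-coding genes (y axis, %) with a peak midpoint at or within a given distance (x axis, bp, with 0 for inside the gene, linear to 100 and log beyond) for each complex; points mark AG, SHP2, STK and SHP1. AG, SHP2 and STK sit at 0 to 1799 bp in both lists, and SHP1 at 12818 and 19878 bp.

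The limit of 3000 bp fell in a gap between the peaks counted at the members and those not counted. The farthest peak counted was that at STK, at 1780 bp and 1799 bp. The nearest peak not counted, from SEP3Δtet-AGΔtet, lay 8941 bp from AG. The 3 positions beside AG, SHP2 and STK were all on the low-coordinate side, which cannot be read as a side of transcription without strand.

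The midpoints of the overlapping pairs at these genes were 9 to 25 bp apart. The offset was 9 bp at SHP2, 10 bp inside AG, 19 bp at STK and 25 bp beside AG. In all 4 pairs the SEP3Δtet3M-AG midpoint had the higher coordinate. Over all 1137 overlapping pairs the median distance was 8 bp, the median signed offset was 0 bp, and the SEP3Δtet3M-AG midpoint was the higher in 49.3% and the lower in 48.7%. The SHP2 pair and the pair inside AG lay near that median, with 50.5% and 55.3% of pairs closer together. The STK pair and the pair beside AG were wider than most, with 81.4% and 89.1% of pairs closer together. Even the widest, beside AG, shared 375 of 400 bp. The spread of a called midpoint between libraries of 1 complex is unknown here, so these offsets cannot be read as different binding positions.

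**Figure D3:**
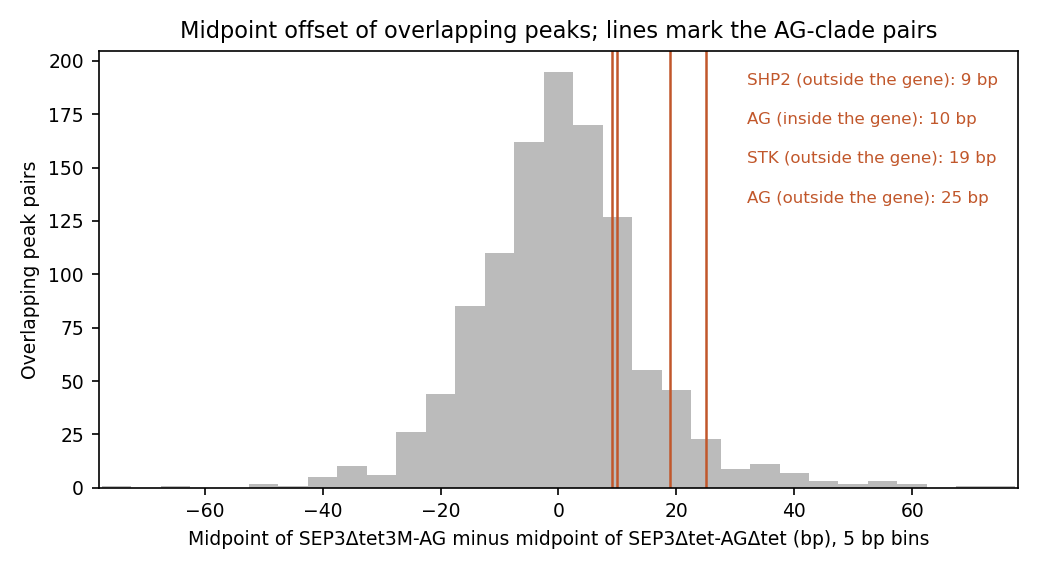
Midpoint of the SEP3Δtet3M-AG peak minus that of the overlapping SEP3Δtet-AGΔtet peak (x axis, bp) against the number of pairs (y axis) in 5 bp bins, for overlapping peaks of the whole lists; a few wider offsets lie outside the drawn range. Lines mark the 4 pairs at AG, SHP2 and STK, at 9, 10, 19 and 25 bp, all on the positive side.

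Related floral MADS-box clades were set beside the AG clade. Of all protein-coding genes, 12.0% had a peak with SEP3Δtet3M-AG, 15.8% with SEP3Δtet-AGΔtet and 8.65% with both, whether or not the peaks overlapped. Among AP3, PI and the B-sister genes TT16 and GOA, which act in petals, stamens and the seed coat, 2 of 4 genes had a peak in each list, and AP3, alone among them, had an overlapping pair. Among AP1, CAL, FUL and AGL79, of the clade that specifies floral meristems and fruit, AP1 and CAL had a peak with SEP3Δtet3M-AG and FUL and AGL79 with SEP3Δtet-AGΔtet, with 0 pairs. Among SEP1 to SEP4, AGL6 and AGL13, SEP4 had a peak with SEP3Δtet3M-AG and SEP3 with SEP3Δtet-AGΔtet, also with 0 pairs. The AG clade had 3 of 4 genes with a pair, and these clades had 1 of 4, 0 of 4 and 0 of 6. The pair counted for STK was nearest to AT4G09950, while the AP3 pair was nearest to AP3. By nearest gene alone, 2 AG-clade genes had a peak in each list. The share of all protein-coding genes with a pair was not computed. It cannot exceed the 8.65% with a peak in both lists, and gene length was not matched. These other clades were named after their values were seen, the numbers are small, and the difference between clades was not tested.

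The wider set of 40 genes around the AG clade comprised 15 genes grouped as regulators of its genes, 8 floral MADS partners and 17 genes of carpel, ovule and fruit development. All 8 MADS partners, and FUL among the 17, also belong to the clades above, so their peaks are the same ones counted again. Of the 40, 9 had a peak with SEP3Δtet3M-AG (22.5%) and 15 with SEP3Δtet-AGΔtet (37.5%). Both lists held a peak at 6 of them, 3 had one with SEP3Δtet3M-AG alone, 9 with SEP3Δtet-AGΔtet alone and 22 with neither. Over all protein-coding genes the shares were 12.0% and 15.8%. These 40 genes were chosen with earlier results of these data known and are not a random draw of genes, and the difference was not tested. Of the 18 genes with a peak in either list, 33.3% had one in both, against 45.1% of the 5268 protein-coding genes with a peak in either list. The 3 with SEP3Δtet3M-AG alone were all MADS partners (SEP4, PI and AP1).

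The genes grouped here as regulators of AG-clade genes had shares near those of all protein-coding genes. Whether each of them acts on the clade was not examined. Of 15, 1 had a peak with SEP3Δtet3M-AG (6.67%) and 3 with SEP3Δtet-AGΔtet (20.0%), and 80.0% had none in either list, against 80.8% of all protein-coding genes. SUP was the one with a peak in both lists. SUP sets the boundary between stamens and carpels, and it had 2 peaks in each list, forming 2 overlapping pairs, the same pattern of numbers as at AG. Its nearest midpoints were 907 bp and 906 bp away. KNU, which represses WUS as the floral meristem ends, had a SEP3Δtet-AGΔtet peak 1230 bp away, and HUA2, which promotes AG function, had one 2921 bp away. The HUA2 peak was nearer to AT5G23160. The remaining 12 had none in either list, among them LFY and WUS, which activate AG, and AP2, LUG, SEU and CLF, which repress it. The ovule genes BEL1 and ANT were also among the 12.

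Among the 8 floral MADS partners, 4 had a peak with SEP3Δtet3M-AG (50.0%, against 12.0% of all protein-coding genes) and 3 with SEP3Δtet-AGΔtet (37.5%, against 15.8%). AP3, a petal and stamen identity gene, held a peak of both complexes within its limits. AP1 had a SEP3Δtet3M-AG peak inside the gene, SEP4 one at 398 bp and PI one at 2099 bp, none of them matched in the other list. The PI peak was nearer to DIN10. TT16, which acts in the seed coat, had 2 SEP3Δtet-AGΔtet peaks, the nearer at 593 bp, and SEP3 had 1 at 2747 bp. Of these, 1 peak counted for TT16 was nearest to AT5G23250, and the SEP3 peak was nearest to AT1G24265. SEP1 and SEP2 had none.

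Among the 17 genes of carpel, ovule and fruit development, 4 had a peak with SEP3Δtet3M-AG (23.5%, against 12.0% of all protein-coding genes) and 9 with SEP3Δtet-AGΔtet (52.9%, against 15.8%). The 4 SEP3Δtet3M-AG peaks all overlapped a SEP3Δtet-AGΔtet peak, as 67.6% of that whole list did. The genes were HEC1 and HEC3, bHLH genes of the stigma and transmitting tract, YAB3, a gene of organ polarity, and ETT, an auxin response factor that patterns the gynoecium. The peaks lay inside HEC3 and YAB3, 372 bp and 347 bp from HEC1, and 2471 bp and 2476 bp from ETT. A further 5 genes had a peak with SEP3Δtet-AGΔtet alone. IND, which specifies the valve margin downstream of SHP1 and SHP2, had one 29 bp from the gene, and SPT, a bHLH gene of the carpel margin, had one at 467 bp. FUL, which limits SHP1 and SHP2 to the valve margin, had one inside the gene. The peaks of VDD, at 667 bp, and NGA3, at 2274 bp, were nearer to SAUR19 and ARV1. CRC, NZZ and INO, genes of carpel, sporocyte and ovule development, were among the 8 with no peak in either list.

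**Figure D4:**
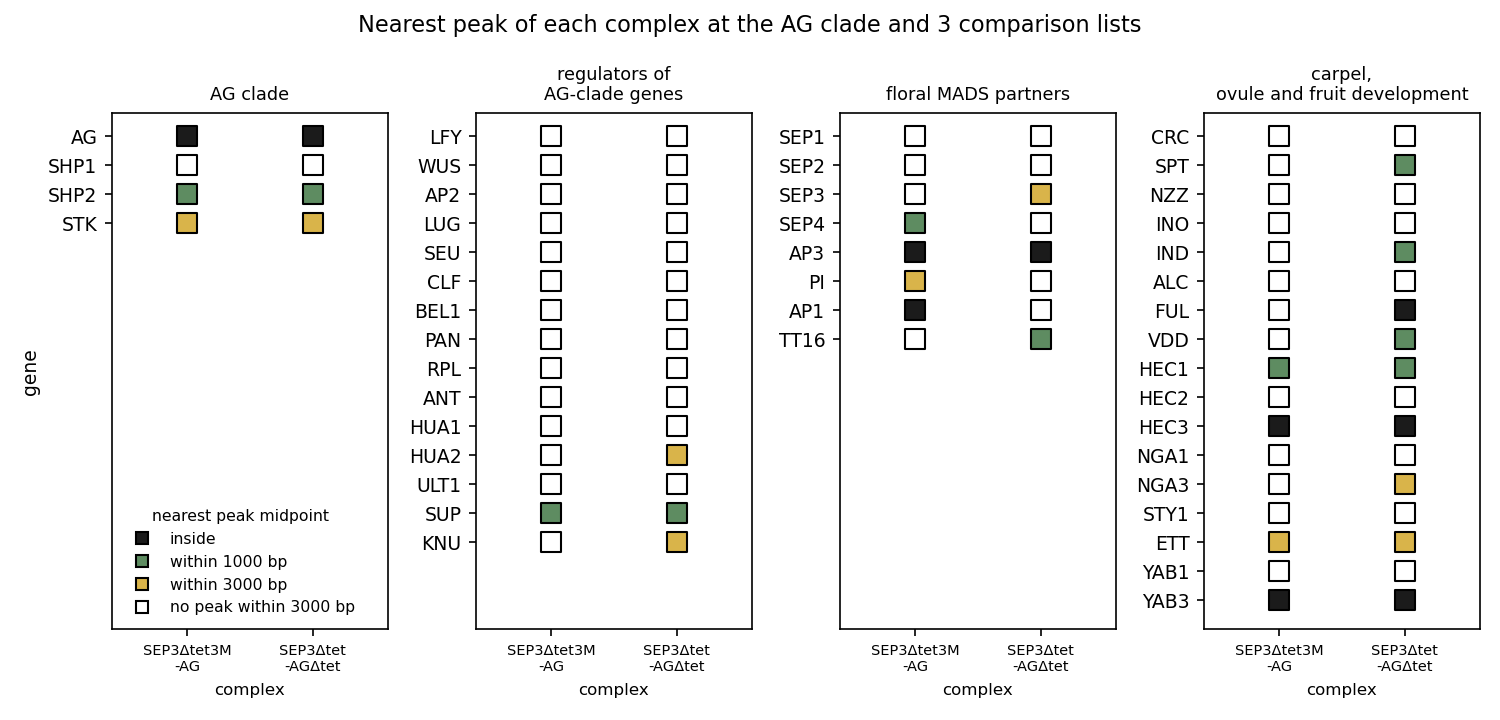
Place of the nearest peak midpoint of each complex (columns on the x axis) at each gene (y axis) of the AG clade and of the 3 comparison lists; black is inside the gene, green outside within 1000 bp, yellow within 3000 bp and white no peak. AG, SHP2 and STK have the same colour in both columns, as do the 6 comparison genes with a peak in both. A further 12 of the 40 comparison genes have a peak in 1 column alone. Of the 5268 protein-coding genes with a peak in either list, 45.1% have one in both.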

How the data were processed

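The authors deposited 1 file of peak positions per complex (chromosome, start and end, no header, no score), so no values of expression or signal entered. Bowtie2, SAMtools and MACS2 are named without version or role, per the submitters' processing notes. For the build, caller settings, depth and pooling, details were not given in the sources used here. Genes came from the TAIR10.1 RefSeq table. Its coordinates are not printed, since the files' build is not named, and peak positions are counted from 1. A midpoint inside a gene or within 3000 bp of it counted as a peak there, and lists were compared by at least 1 bp of overlap. The AG clade, the clades beside it and the lists of 40 genes were chosen with earlier results of these data known. Genes named are the 4 members, the genes nearest to or neighbouring their peaks, every gene of the 3 lists with a peak, and some without one. Where a peak of the 3 lists was nearer to another gene, that gene is named too. The other clades were named after their values were seen. Distances, counts and overlaps were computed with Python 3.11.15, numpy 2.4.6 and pandas 2.3.3, and tested on simulated peaks. Alternatives were flanks of 0, 1000 and 5000 bp, peaks placed by any base, peaks nearest to the member, merged peaks, 200 bp of overlap and midpoints within 100 bp. No sequences were used here.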

Additional observations from a re-analysis of the deposited data

How the results depend on the processing

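The counts at AG, SHP2 and STK depended on the distance from a gene at which a peak was still counted, in the same way for both complexes. Within 1000 bp, 2 genes of the clade (AG and SHP2) and 2 peaks remained in each list, and inside genes 1 gene and 1 peak, at AG. Of all protein-coding genes, 6.61% had a SEP3Δtet3M-AG peak within 1000 bp and 8.69% a SEP3Δtet-AGΔtet peak. Inside genes these shares were 3.17% and 3.8%. Of the 40 comparison genes, 7 had a SEP3Δtet3M-AG peak within 1000 bp and 10 a SEP3Δtet-AGΔtet peak, and 4 had a peak inside in each list. At 5000 bp the clade's counts were 3 genes and 4 peaks, as at 3000 bp. If a peak counted for its nearest gene alone, STK was lost and 2 genes were left in each list. All 4 pairs were still shared at 200 bp of overlap and with midpoints within 100 bp. Of 30 alternative values, 22 stayed within 1.5 times the reported count and 8, all of them from the narrower distances above, did not. Depth is unknown, so whether SHP1 would gain a peak with more reads cannot be told. No paired analysis was possible because each complex had 1 list and no test was made.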

Other observations

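Within 25000 bp of AG, SEP3Δtet-AGΔtet had 3 further peaks that overlapped none of the other list, while SEP3Δtet3M-AG had no peak there beyond its pair at AG. They lay 8941 bp, 14564 bp and 17683 bp from AG, at chromosome 4, 10397281 to 10397680, 10368093 to 10368492 and 10364974 to 10365373. The first was nearest to AtS40-3, 1377 bp away. The second lay inside NIP1;2, a gene of the aquaporin family, and the third lay 871 bp from that same gene. Around SHP2 and STK, neither complex had a further peak within 25000 bp. Of all SEP3Δtet-AGΔtet peaks, 49.7% overlapped the other list, and that list is the longer, with 2277 peaks against 1681. With 1 list per complex, the difference in number around AG was not tested.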
